A study of Mus musculus with 6 samples.

Results

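Ccr2, the receptor through which monocytes leave the bone marrow and enter inflamed tissue, was followed together with 6 genes for ligands that attract monocytes or keep them alive: Ccl2, Ccl7, Ccl8, Ccl12, Cx3cl1 and Csf1. The 7 genes were chosen by name, and all 7 were among the 16422 genes tested. They were read by 9 of the 55681 distinct probes of a one-colour Agilent array, 3 of them for Csf1. The RNA came from mouse lung cells left after magnetic removal of cells bearing CD45, the surface antigen of leukocytes. Silica, a mineral dust that causes fibrosing inflammation of the lung, was given by aspiration. The groups were Ccr2KO mice (B6.129S4-Ccr2tm1Ifc/J) untreated at day 0, Ccr2KO mice 28 days after silica, Ccr2KO mice 40 days after silica, and WT mice (C57BL/6J) at the same 3 times. Mice were between 7 and 9 weeks old at the start. RNA of 3 biological replicates was pooled for each of the 6 groups and put on 1 array, so no value carries a spread between animals, and the knockout is constitutive and affects every cell type. Lungs had been digested with enzymes and freed of erythrocytes and silica on Percoll before the sort. The untreated groups received no aspiration that the labels describe, so aspiration and silica cannot be told apart.

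In mice, Ccl2, Ccl7, Ccl8 and Ccl12 encode the monocyte chemoattractant proteins, small secreted CC chemokines of which Ccl2, Ccl7 and Ccl12 are established ligands of CCR2, while mouse CCL8 is known mainly as a ligand of CCR8. Stromal, endothelial, epithelial and myeloid cells can all make them, commonly after signalling through NF-kappaB. CCR2 also takes up its ligands, and mice without it are known to have raised CCL2 in blood. Cx3cl1 encodes fractalkine, a membrane-bound chemokine of endothelium and epithelium that binds CX3CR1 on patrolling monocytes. Csf1 encodes the growth factor on which monocytes and macrophages depend, acting through CSF1R.

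The promoters of the 3 ligand genes that held a searched motif are shown because the genes of 2 of them moved after silica. The 250 bases before the transcription start came from RefSeq (GRCm38.p6), whose table held 5 of the 7 genes. Ccl2 and Ccl7 were not matched. Capitals mark TATAAAA, the TATA box, in Ccl8 and Ccl12, and, in Csf1, GGG followed after 5 bases by CC, a loose form of the site of NF-kappaB. Both motifs were searched on both strands.
Ccl8 promoter, chr11:82114935-82115184, plus strand: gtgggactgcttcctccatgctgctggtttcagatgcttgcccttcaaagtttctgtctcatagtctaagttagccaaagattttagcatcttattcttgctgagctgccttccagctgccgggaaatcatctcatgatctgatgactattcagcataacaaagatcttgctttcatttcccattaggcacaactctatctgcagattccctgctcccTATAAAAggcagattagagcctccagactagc
Ccl12 promoter, chr11:82101595-82101844, plus strand: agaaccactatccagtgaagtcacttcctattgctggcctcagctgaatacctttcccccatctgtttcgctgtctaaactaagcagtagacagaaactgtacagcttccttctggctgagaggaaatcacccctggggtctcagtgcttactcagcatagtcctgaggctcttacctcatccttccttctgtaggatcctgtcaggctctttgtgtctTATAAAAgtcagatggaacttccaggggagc
Csf1 promoter, chr3:107760470-107760719, minus strand: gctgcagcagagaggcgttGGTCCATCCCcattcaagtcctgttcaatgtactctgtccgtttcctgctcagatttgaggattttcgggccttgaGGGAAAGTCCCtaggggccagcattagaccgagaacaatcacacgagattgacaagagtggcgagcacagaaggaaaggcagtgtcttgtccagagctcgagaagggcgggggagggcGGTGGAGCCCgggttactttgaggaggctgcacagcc
Counted from the start, the TATA box lay at positions -32 to -26 in Ccl8 and -31 to -25 in Ccl12. It was found in 4.98% of 32851 promoters of this length. Csf1 held 4 matches to the NF-kappaB form, with their first bases at -231, -155, -154 and -37. The pair at -155 and -154 overlap on opposite strands. That loose form occurred in 45.8% of promoters, so its presence is not rare. The windows of Ccr2 and Cx3cl1 held neither motif. TGANTCA, bound by AP-1, occurred in 6.75% of all promoters and TTCNNNGAA, bound by STAT factors, in 7.02%. Neither was found in the 5 windows. On chromosome 11 the order of the RefSeq genes is Ccl2, Ccl7, Ccl11, Ccl12, Ccl8 and Ccl1, so that the 4 CC ligand genes stand in 1 cluster. Ccr2 lies on chromosome 9.

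Levels are given on the log2 scale after subtracting each array's 75th percentile, so that 0 is the signal that 75% of probes do not exceed and a step of 1 is a doubling. They compare arrays for one probe and not one gene with another. Between 58.2 and 64.3% of the probes were well above background on an array, and no spot was saturated. All 9 probes were well above background on all 6 arrays. The scanner error was at most 10.2% of the signal for Ccl2, Ccl7, Ccl8, Cx3cl1 and Csf1, and reached 18% for Ccr2 and 15.2% for Ccl12. Ccl2 and the main Csf1 probe were each printed as 10 spots, with a spot SD of 0.079 log2 or less. Differences between days and genotypes were fitted with limma over all 16422 genes, taking day and genotype as additive, and p-values were adjusted by Benjamini and Hochberg with a threshold of 0.05. The fit had 2 residual degrees of freedom. Its error is the departure of single pooled arrays from additivity, not the variation among mice. The authors' deposited values without scaling lower the median of all genes by 0.19 log2 after silica and by 0.20 log2 in Ccr2KO against WT.

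**Figure D1:**
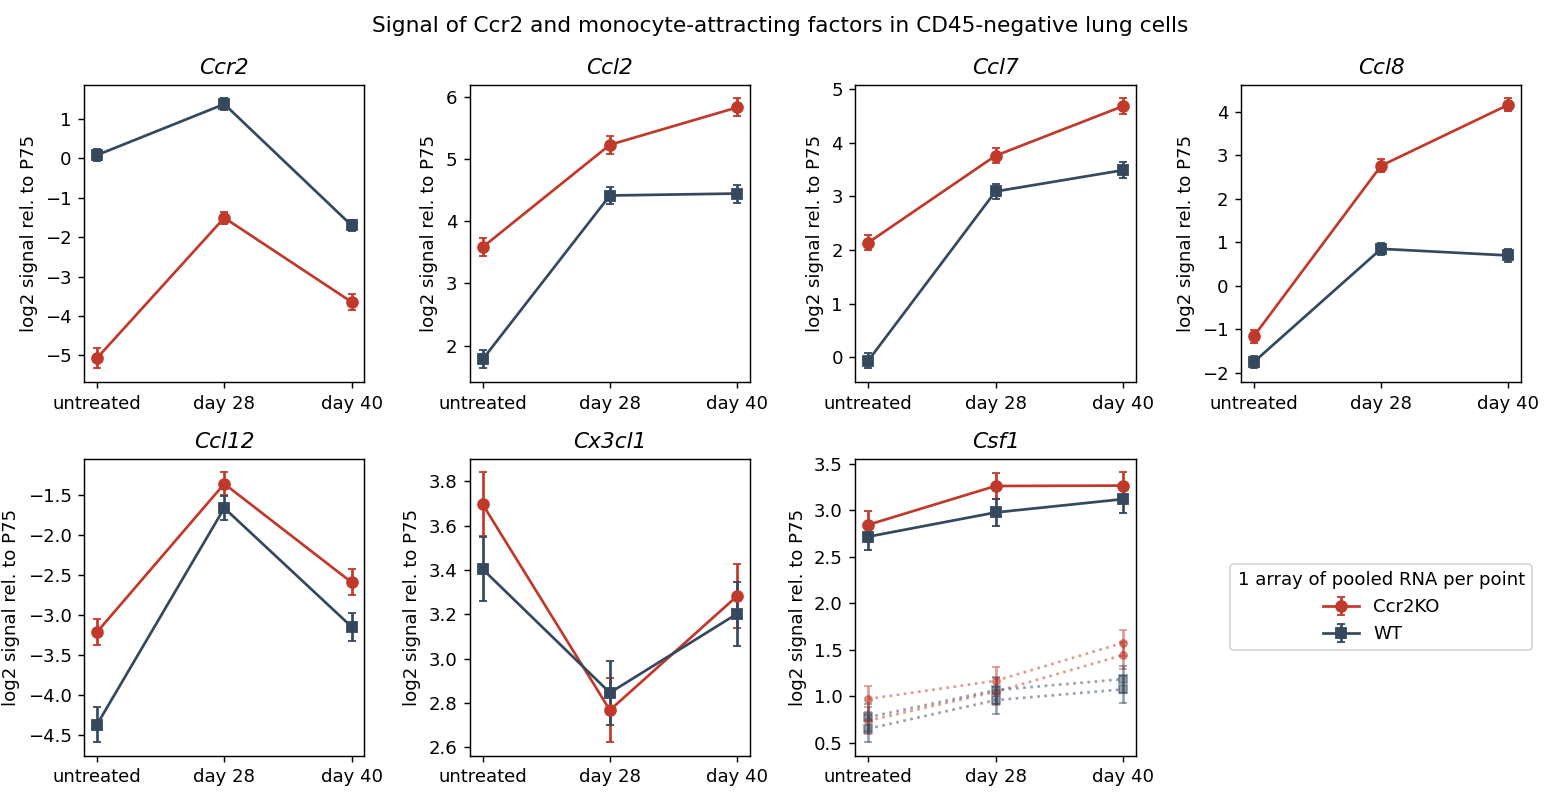
Log2 signal above the array's 75th percentile (vertical axes) of Ccr2 and the 6 ligand genes on each of the 6 arrays, by day (horizontal axes), with Ccr2KO and WT as separate lines and bars for the scanner error. Ccl2 and Ccl7 stand higher in Ccr2KO than in WT cells at each time, Ccl8 parts most at day 40 (4.17 in Ccr2KO, 0.70 in WT), and Ccr2 is lower in Ccr2KO at each time.

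Ccr2 was lower in Ccr2KO than in WT cells at each time, and it had its highest reading in both genotypes at day 28. It read -5.07, -1.51 and -3.64 in Ccr2KO cells (untreated, day 28 and day 40), against 0.09, 1.38 and -1.70 in WT cells. The Ccr2KO arrays thus spanned 3.56 log2 units and did not stay at the background. The processed intensity in Ccr2KO cells was 28.8, 343.5 and 63.4, against 1251, 3018 and 270.4 in WT cells. In the order of the 6 levels, Ccr2KO at day 28 and WT at day 40 lay within their scanner error, and every other pair of neighbours lay outside it. The labels do not place the probe inside or outside the deleted stretch, so this signal is no check of the knockout. In pooled tissue cells, fewer cells expressing a gene and less RNA per cell cannot be told apart.

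The Ccr2 difference between Ccr2KO and WT was -5.16 in untreated cells, -2.89 at day 28 and -1.94 at day 40. Its mean was -3.33 ± 0.66 (log2 ± SE, limma adjusted p = 0.414, n = 3 arrays per genotype). Ranked from the highest, it was the difference at place 16420 of 16422 genes, yet no gene passed the test. After silica, Ccr2 was 3.56 higher at day 28 and 1.43 higher at day 40 in Ccr2KO cells, against 1.29 higher and 1.78 lower in WT cells. The fitted silica difference, days 28 and 40 against untreated, was 1.13 ± 0.70 and did not pass (limma adjusted p = 0.308). The value rests on the untreated arrays. It became 2.50 without the WT untreated array (limma adjusted p = 0.032) and -0.24 without the Ccr2KO untreated array.

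Genes of leukocytes moved with Ccr2 in part, although the cells had been depleted of CD45. Ptprc, which encodes CD45, read 0.45, 2.14 and -0.61 in Ccr2KO cells (untreated, day 28 and day 40), against 1.54, 2.62 and 0.29 in WT cells. The summed signal of 12 pan-leukocyte genes, as log2, was 5.69, 7.51 and 5.38 in Ccr2KO cells, against 6.56, 7.88 and 5.74 in WT cells. All 12 were above background on every array, and 11 of them were lower in Ccr2KO at each time, as were 13.3% of all genes. At day 28 against untreated, 11 of the 12 rose, where 9.19% of all genes did. At day 40 against day 28, 11 of the 12 fell, where 2.53% of all genes did. Pan-leukocyte transcripts and Ccr2 therefore shared their peak at day 28 and, for 11 of the 12, their order between genotypes. They parted in Ccr2KO cells at day 40, where Ccr2 stood 1.43 above untreated while Ptprc and the summed signal stood below it. Single leukocyte types differed in the order between genotypes. At each time 5 of 8 neutrophil genes were higher in Ccr2KO and 1 lower, while all 4 B cell genes were lower.

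The summed signal of the 11 measured monocyte genes did not follow that order between genotypes. It was 8.65, 8.46 and 8.67 in Ccr2KO cells, against 8.61, 8.60 and 8.56 in WT cells. The brightest gene, Nr4a1, weighs most in it, at 7.99, 7.18 and 7.75 in Ccr2KO cells, against 7.70, 7.44 and 7.57 in WT cells. The sum therefore says little about the dimmer genes. At each time 4 of the 11 were lower in Ccr2KO, as were 13.3% of all genes. Of these 4, F13a1, Fcgr1 and Spn also had their highest reading at day 28 in both genotypes, while Treml4 did not. The monocyte genes that rose after silica, Plac8 and Cd14, had another order. Cd14, a receptor for bacterial lipopolysaccharide, read 3.08, 4.64 and 4.12 in Ccr2KO cells, against 2.79, 4.91 and 4.24 in WT cells. Plac8 read 3.26, 4.81 and 5.02 in Ccr2KO cells, against 3.95, 5.15 and 4.94 in WT cells. F13a1 had the widest gap of the list and was singled out after its values were seen. F13a1, the coagulation factor chain made by monocytes, read -1.28, -0.26 and -2.02 in Ccr2KO cells, against 1.47, 2.93 and -0.33 in WT cells. The part of remaining leukocytes in the Ccr2 readings was not tested.

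**Figure D2:**
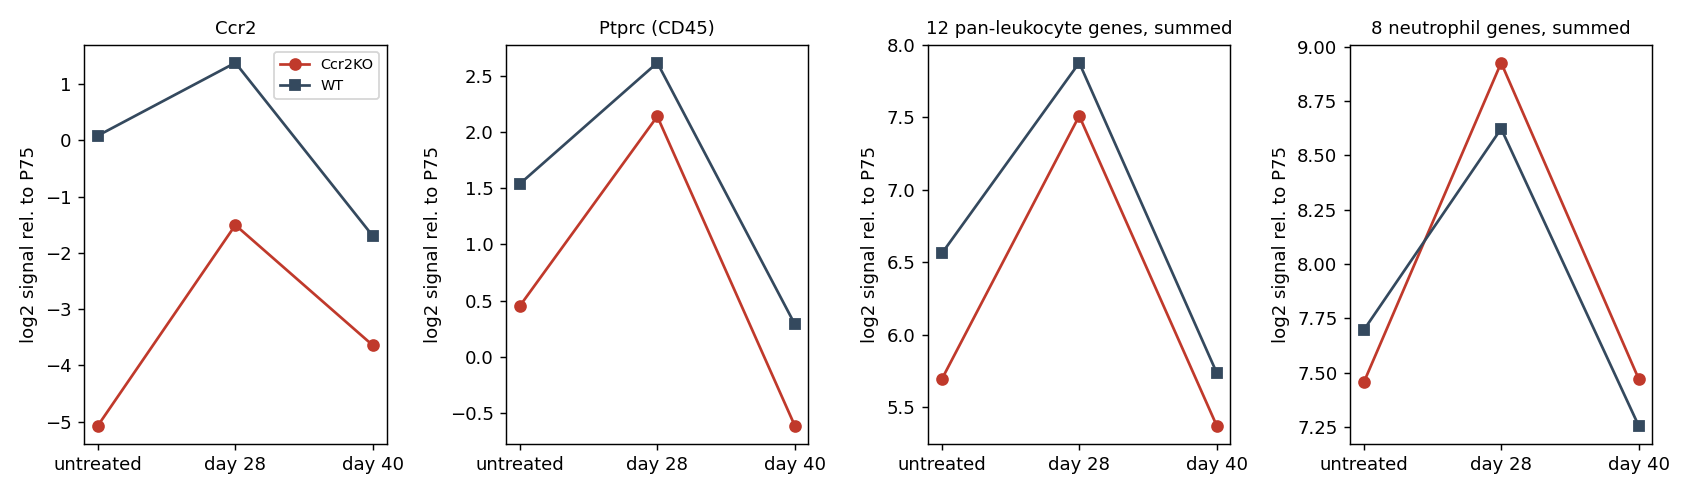
Ccr2, Ptprc, the sum of 12 pan-leukocyte genes and the sum of 8 neutrophil genes by array, on the log2 scale above each array's 75th percentile (vertical axes), against day (horizontal axes), with Ccr2KO and WT drawn separately. All have their highest value at day 28 in both genotypes, and all but the neutrophil sum lie lower in Ccr2KO than in WT cells at each time.

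Ccl2 and Ccl7, ligands of CCR2, rose after silica in both genotypes and stood higher in the knockout. Ccl2 read 3.58, 5.23 and 5.83 in Ccr2KO cells (untreated, day 28 and day 40), against 1.78, 4.41 and 4.44 in WT cells. All 4 silica arrays lay above both untreated arrays. Ccl2 rose by 2.30 ± 0.23 after silica (log2 ± SE, limma adjusted p = 0.0114, 2 untreated and 4 silica arrays), or 4.92-fold. The untreated Ccr2KO level already stood above untreated WT by 1.80, beyond the scanner error. WT at days 28 and 40 could not be told apart within that error.

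Ccl7 had the same course over a wider range. It read 2.14, 3.76 and 4.68 in Ccr2KO cells, against -0.07, 3.09 and 3.49 in WT cells. The 2 WT silica arrays and Ccr2KO at day 28 lay within the scanner error of their neighbours, and Ccr2KO at day 40 stood above them all. Ccl7 rose by 2.72 ± 0.34 after silica (limma adjusted p = 0.0163), or 6.58-fold. This was 2.08 without the WT untreated array and 3.35 without the Ccr2KO untreated array, past the threshold in both. Across the 6 arrays the levels of Ccl2 and Ccl7 had a Pearson r of 0.99, a description of arrays that share the silica contrast and a slide.

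Ccl8 rose most of the 7 genes and, among the ligand genes, showed the widest gap between genotypes after silica. It read -1.16, 2.76 and 4.17 in Ccr2KO cells, against -1.76, 0.85 and 0.70 in WT cells. The WT silica arrays were within scanner error of each other, while in Ccr2KO cells day 40 stood above day 28. The rise over untreated was 3.58 ± 0.61 (limma adjusted p = 0.0289), or 11.9-fold. Within genotypes it was 3.92 at day 28 and 5.33 at day 40 in Ccr2KO cells, the second being 40.2-fold, against 2.61 and 2.45 in WT cells. The call was lost without the Ccr2KO untreated array, where the rise was 2.53 (limma adjusted p = 0.0698), and with no filter on dim probes (0.0565). Without the WT untreated array the rise was 4.63.

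Ccl12, a mouse ligand of CCR2 with no direct human counterpart, peaked at day 28. It read -3.22, -1.36 and -2.59 in Ccr2KO cells, against -4.37, -1.66 and -3.15 in WT cells. Its day 28 arrays stood above all others in both genotypes and did not differ from each other beyond the scanner error. Ccl12 rose by 1.60 ± 0.21 after silica (limma adjusted p = 0.0169), or 3.04-fold. It was 2.28 ± 0.24 higher at day 28 (limma adjusted p = 0.0143) and 0.92 ± 0.24 higher at day 40, which did not pass (limma adjusted p = 0.0763). The change between these days, -1.36 ± 0.24, did not pass either (limma adjusted p = 0.0924), although 5 of 10 other processing settings put it past the threshold.

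Cx3cl1 was the ligand gene with lower readings after silica. It read 3.70, 2.77 and 3.28 in Ccr2KO cells, against 3.40, 2.85 and 3.20 in WT cells. All 4 silica arrays lay below both untreated ones. No 2 neighbours in the order of levels differed beyond the scanner error of 0.40. Day 28 against untreated spans more than 1 such step, with differences of -0.93 in Ccr2KO and -0.56 in WT cells. Cx3cl1 fell by 0.74 ± 0.14 on the log2 scale at day 28 (limma adjusted p = 0.0375). Leaving out any 1 of the 6 arrays ended that call, with limma adjusted p between 0.053 and 0.208. Over both days its difference was -0.53 ± 0.12 and did not pass (limma adjusted p = 0.0516), while 6 of 10 other settings, but none of the 6 fits without 1 array, put it past the threshold. Genes of the cells that commonly make fractalkine were also lower in part. Among the 5 endothelial and 5 epithelial markers, 2 of each fell after silica and none rose, where 9.33% of all genes fell and 10.5% rose. The other 3 of each did not pass. The part of these cells in the Cx3cl1 readings was not tested.

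Csf1 stayed within a narrow range. Its main probe read 2.84, 3.26 and 3.26 in Ccr2KO cells, against 2.72, 2.98 and 3.12 in WT cells. Silica arrays lay above untreated ones, yet no neighbours in the order differed beyond the scanner error of 0.400. Against untreated, days 28 and 40 were 0.417 and 0.421 higher in Ccr2KO cells and 0.260 and 0.403 higher in WT cells. The silica difference was 0.38 ± 0.10 and did not pass (limma adjusted p = 0.0677). The other 2 Csf1 probes, which match another RefSeq transcript, gave 0.38 and 0.44.

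Of the 7 genes, 4 rose after silica (Ccl2, Ccl7, Ccl8 and Ccl12) and none fell, where 10.5% of all genes rose and 9.33% fell, 19.8% in either direction. All 4 rose by at least 2-fold, as did 5.88% of all genes. The median silica difference of the 7 genes was 1.60, against -0.01 for all genes. Together with Csf1, 5 of the 7 had all 4 silica arrays above both untreated arrays, as had 21.1% of all genes, and Cx3cl1 had them all below, as had 24.0%. At day 28, Ccl2, Ccl7 and Ccl12 rose and Cx3cl1 fell, against a background of 17.2% of all genes, 9.19% risen and 8.04% fallen. Ccl8 was 3.27 ± 0.71 higher at that day and just missed the threshold (limma adjusted p = 0.0504). At day 40, Ccl2, Ccl7 and Ccl8 rose, by 2.46, 3.05 and 3.89, and none of the 7 fell, where 8.45% of all genes rose and 6.72% fell, 15.2% together. Slide row 1 held both untreated arrays and Ccr2KO at day 28, and row 2 held WT at day 28 and both day 40 arrays. Day 40 against untreated is therefore also row 2 against row 1. Only Ccr2KO at day 28 against untreated compares silica within a row. That difference was 1.65 for Ccl2, 1.62 for Ccl7, 3.92 for Ccl8 and 1.86 for Ccl12. With the row fitted as a block, or without either day 28 array, none of the 7 passed the silica test. With the block the silica differences were 1.71 for Ccl2, 1.95 for Ccl7, 3.49 for Ccl8 and 1.19 for Ccl12. In those fits, which have 1 residual degree of freedom, no gene of the array passed it. Leaving out an array of day 28 or day 40 leaves 1 array at that day, so those fits cannot decide the day 40 calls. Without the Ccr2KO day 40 array the day 40 differences were 2.42 for Ccl2, 3.17 for Ccl7 and 2.78 for Ccl8. Without the WT day 40 array they were 2.49, 2.93 and 4.999. Without either day 28 array they stayed at 2.46, 3.05 and 3.89. The day 40 call of Ccl8 was lost without the Ccr2KO untreated array, with no filter and with each probe tested by itself.

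**Figure D3:**
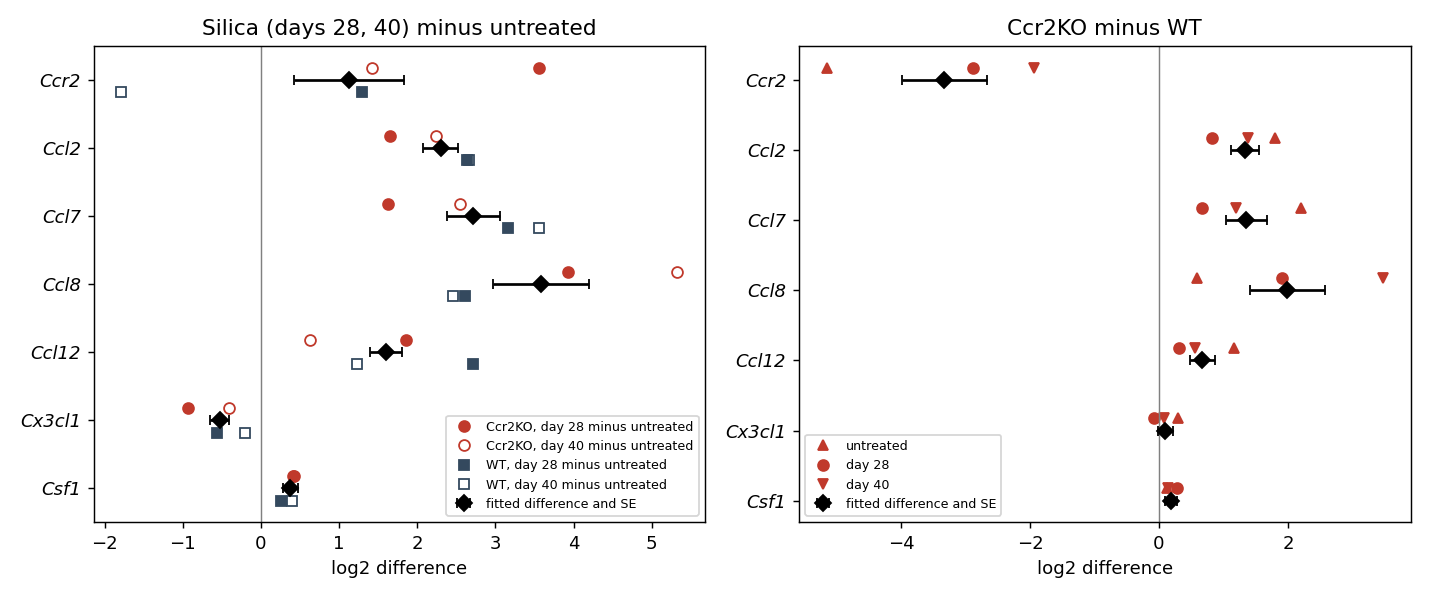
Fitted log2 differences (horizontal axis) of the 7 genes, as black diamonds with bars for the standard error, for silica against untreated and for Ccr2KO against WT, beside the differences between single arrays (coloured points). Ccl2, Ccl7, Ccl8 and Ccl12 lie above 0 in both comparisons, between 1.60 and 3.58 for silica, and Ccr2 lies at -3.33 for genotype.

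Cells of the knockout had more Ccl2, Ccl7 and Ccl8 signal than WT cells at every time, but no member passed the test between genotypes. The difference was 1.33 ± 0.21 for Ccl2 (limma adjusted p = 0.381), 1.35 ± 0.32 for Ccl7 (0.455) and 1.99 ± 0.58 for Ccl8 (0.492). As folds these were 2.52, 2.56 and 3.98. The Ccl8 difference was 1.25 without either day 40 array and 2.69 without either untreated array. By time, untreated, day 28 and day 40, Ccl2 was 1.80, 0.82 and 1.38 higher in Ccr2KO, and Ccl7 was 2.20, 0.67 and 1.19 higher. Both gaps were thus widest in untreated mice and narrowest at day 28. Ccl8 went the other way, with gaps of 0.59, 1.91 and 3.47, the last being 11.1-fold. Ccl12 was 1.16, 0.30 and 0.56 higher, with a mean of 0.67 ± 0.19.

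Cx3cl1 and Csf1 barely differed between genotypes. The Cx3cl1 gaps were 0.29, -0.08 and 0.08, with a mean of 0.10 ± 0.11, and the Csf1 gaps 0.13, 0.28 and 0.15, with a mean of 0.19 ± 0.09. The sign of both means turned in the deposited values without scaling, to -0.13 for Cx3cl1 and -0.04 for Csf1, where the median gene lay 0.20 lower in Ccr2KO. Gaps of Ccl2, Ccl7, Ccl8 and Ccl12 kept their sign under each setting tried.

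No gene of the 16422 passed the genotype test (0%), and the count at an unadjusted p under 0.05 was 1525 genes, or 9.29%. Of the 7, 5 were among these, Ccr2 lower and Ccl2, Ccl7, Ccl8 and Ccl12 higher, where 5.26% of all genes were higher. Ccr2KO lay above WT at each time for Ccl2, Ccl7, Ccl8, Ccl12 and Csf1, as for 19.6% of all genes, and below it for Ccr2, as for 13.3%. With a mean of at least 2-fold in addition, Ccl2, Ccl7 and Ccl8 remained, where 0.645% of all genes did (106 genes). Ccr2 was among the 72 genes, or 0.438%, that lay as far below. From the highest of all genes, Ccl8 held place 14 in this difference, Ccl7 place 47 and Ccl2 place 52. These places describe 3 single-array pairs and carry no test. Between arrays of one slide row the Ccr2KO gaps at day 0 and day 40 are those given above, so the sign of each CC ligand gap held within both rows.

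Readings of cell-type markers are given beside these ligands, and no marker of the 3 lists below passed the genotype test. Fibroblast markers, 6 genes, had a summed signal of 8.30, 9.32 and 9.73 in Ccr2KO cells, against 8.22, 9.02 and 9.11 in WT cells, and 4 of the 6 were higher in Ccr2KO at each time. Neutrophil markers, 8 genes, summed to 7.45, 8.93 and 7.47 in Ccr2KO cells, against 7.70, 8.62 and 7.26 in WT cells. At each time 5 of the 8 were higher in Ccr2KO, where 19.6% of all genes were. The 10 measured macrophage markers summed to 3.09, 4.29 and 4.21 in Ccr2KO cells, against 3.31, 4.23 and 3.16 in WT cells. The 3 lists were above background on every array. After silica 4 fibroblast, 6 neutrophil and 5 macrophage markers rose, where 10.5% of all genes did. The fibroblast marker Pdgfra and the macrophage marker Mertk fell, as did 9.33% of all genes. The part of these cell types in the ligand readings was not tested.

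**Figure D4:**
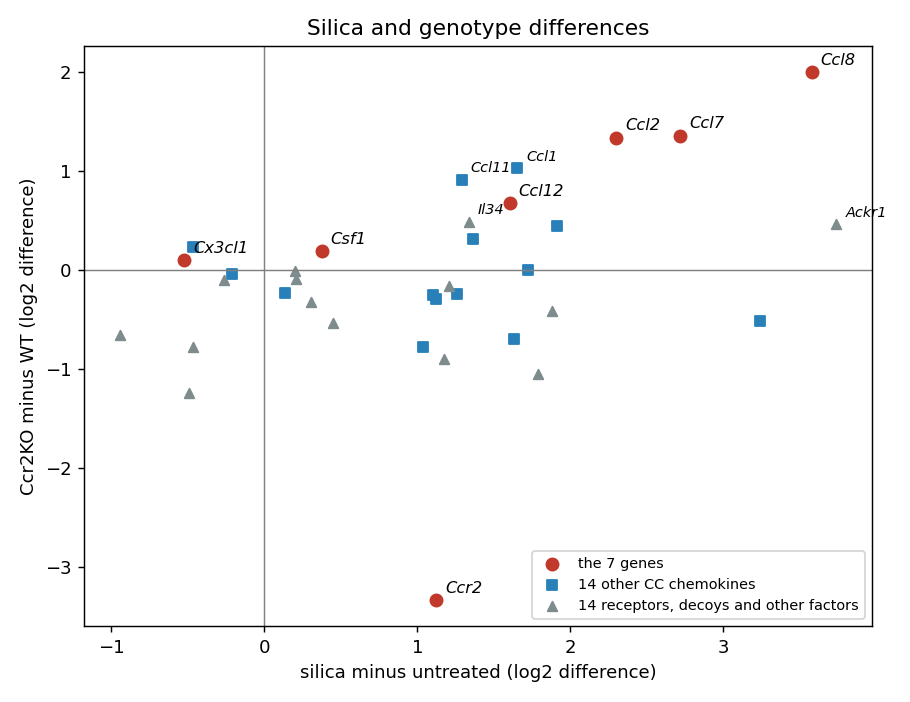
Log2 difference of Ccr2KO against WT (vertical axis) against the log2 silica difference (horizontal axis) for the 7 genes and the other chemokine and receptor genes, as measured. Ccl2, Ccl7 and Ccl8 lie to the upper right, from 1.33 in genotype and 2.30 in silica upward, and Ccr2 lies at the bottom, at -3.33.

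The size of the silica response in the 2 genotypes was compared next. For Ccl2 and Ccl7 the response was smaller in the knockout, whose untreated level was higher. Ccl2 was 1.65 and 2.25 higher at days 28 and 40 in Ccr2KO cells, against 2.63 and 2.67 in WT cells. Ccl7 was 1.62 and 2.55 higher in Ccr2KO cells, against 3.16 and 3.55 in WT cells. The differences of the responses were -0.70 ± 0.43 and -1.27 ± 0.66. They come from the fit of genotype by silica, which takes days 28 and 40 as repeats of silica within a genotype. Any change between those days therefore counts as its error. For genes that changed between them, a result that did not pass says little about the response. For Ccl8 the response was larger in the knockout, by 2.10 ± 0.90, and for Ccr2 by 2.74 ± 2.34. None of the 7 passed (limma adjusted p = 0.9998 for each), and none had an unadjusted p under 0.05, as 619 genes, or 3.77%, did. No gene passed this test (0%). Between day 40 and day 28, 2.73% of all genes passed, 2.53% lower and 0.201% higher, and none of the 7. Ccr2, Ccl12 and Cx3cl1 had an unadjusted p under 0.05 in it, as had 16.1% of all genes.

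Other receptors and ligands of monocyte traffic rose in part. Of 14 genes for receptors, decoy receptors and survival factors, 5 rose after silica, none fell and 9 did not pass, with a median of 0.38. Of all genes 10.5% rose and 9.33% fell, with a median of -0.01. Ackr1, a decoy receptor of venules that binds CCL2 and CCL7, was the furthest moved. It read -1.61, 1.16 and 1.97 in Ccr2KO cells, against -2.82, 1.02 and 1.94 in WT cells, and rose by 3.74 ± 0.29 (limma adjusted p = 0.00863). Il34, the other ligand of CSF1R, read 0.61, 1.84 and 2.25 in Ccr2KO cells, against 0.26, 1.23 and 1.74 in WT cells, and rose by 1.33 ± 0.11 (limma adjusted p = 0.00885). Csf2rb, the shared receptor chain for GM-CSF, rose by 1.88 ± 0.25. It was 2.48 higher at day 28 and 1.29 at day 40, the second not passing (limma adjusted p = 0.0589). Ccr1, a receptor of monocytes and neutrophils, was above background on the 2 day 28 arrays and at least 2.14-fold higher after silica. It passed the filter on dim probes only through the day 28 arrays, so its place among the 5 is set in part by the filter.

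The receptor genes of the 2 remaining ligands did not pass the test over both silica days. Cx3cr1, the fractalkine receptor, read -0.84, 0.56 and -1.44 in Ccr2KO cells, against 1.60, 1.66 and -1.25 in WT cells. Csf1r read 3.92, 4.20 and 2.84 in Ccr2KO cells, against 4.79, 5.29 and 3.24 in WT cells. Csf1r fell by 1.32 on the log2 scale at day 40 against untreated (limma adjusted p = 0.028). Both had lower readings in Ccr2KO at each time, as had 6 of these 14 genes, while 2 had higher ones. Of all genes 13.3% were lower and 19.6% higher at each time.

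Among 14 measured genes of 16 other CC chemokines, 6 rose after silica, 1 fell and 7 did not pass, with a median of 1.27. Of all genes 10.5% rose and 9.33% fell, with a median of -0.01. Ccl17, a ligand of CCR4, rose by 1.72 ± 0.13 (limma adjusted p = 0.0086), Ccl1, a ligand of CCR8, by 1.65 ± 0.27 and Ccl19, a ligand of CCR7, by 1.37 ± 0.22. These are means over both silica days. Ccl17 was 2.95 higher at day 28 and 0.49 at day 40, and Ccl1 was 2.51 and 0.79 higher. Neither passed at day 40 (limma adjusted p = 0.106 and 0.161). Ccl19 was 1.19 and 1.54 higher, and passed at day 40 only. Ccl24, an eotaxin, was at least 3.34-fold higher over both silica days. It passed the filter only through 3 silica arrays, so its place among the 6 is set in part by the filter. The gene that fell was Ccl27a, a chemokine of epithelium, by 0.47 on the log2 scale. Ccl11, the eotaxin gene that lies between Ccl7 and Ccl12, was singled out for that position after its values were seen. It read 0.85, 1.71 and 2.147 in Ccr2KO cells, against -0.34, 1.22 and 1.09 in WT cells, and rose by 1.29 ± 0.18 (limma adjusted p = 0.0198).

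The list of NF-kappaB response genes and inducing cytokines had 16 measured genes, of which 6 rose after silica, none fell and 10 did not pass, with a median of 0.60. Of all genes 10.5% rose and 9.33% fell, with a median of -0.01. Cxcl2, a neutrophil chemokine, rose by 1.72 ± 0.14 and Il1b, the inflammatory cytokine, by 1.26 ± 0.10. Cxcl2 was 2.71 higher at day 28 and 0.74 at day 40, the second not passing (limma adjusted p = 0.0527). Nfkbie, an inhibitor of NF-kappaB that it induces, rose by 1.27 ± 0.14, and Nfkb2, one of its subunits, by 0.90 ± 0.12. Nfkbie and Nfkb2 passed at day 28 and at day 40. Il1b read 2.84, 5.53 and 2.80 in Ccr2KO cells, against 3.12, 5.68 and 2.98 in WT cells. It was near its untreated level again at day 40. Its readings were lower in Ccr2KO at each time, as were those of 13.3% of all genes. The gaps were small, at -0.29, -0.15 and -0.18, and the genotype difference did not pass (limma adjusted p = 0.575).

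Genes whose 6 levels followed a member most closely were sought among 5029 genes that spanned at least 1 log2 unit. With 6 arrays that share 2 contrasts, high coefficients are common. Kcnk10, Gm5086 and Naip6 were nearest to Ccr2 (r up to 0.98). Pde1a, Rnf150 and C1rb were nearest to Ccl2, and Smco2, Cst6 and Aoc1 to Ccl7. Ccl8 was followed by Tcp10b, Adamts12 and Lum, the matrix proteoglycan of fibroblasts, which read 2.10, 3.42 and 4.05 in Ccr2KO cells, against 2.07, 2.90 and 2.92 in WT cells (r = 0.99). H2bc8, Sit1 and Ccl1, the chemokine gene that follows Ccl8 on chromosome 11, were nearest to Ccl12. Cx3cl1 was closest to Nr3c2, Btg2 and Egr1, the last 2 being immediate early genes. Egr1 read 7.70, 6.30 and 7.04 in Ccr2KO cells, against 7.18, 6.30 and 6.99 in WT cells. Ripor3 and Msc were nearest to Csf1. Among the members themselves, Ccl2 had an r of 0.93 with Ccl8, 0.94 with Csf1 and 0.77 with Ccl12, and Cx3cl1 had -0.80 with Ccl12.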

How the data were processed

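Lung cells depleted of CD45 were measured on 6 arrays, 1 per genotype and time, each of RNA (200 ng) pooled from 3 biological replicates, per the labels. Per the file headers, the authors extracted background-subtracted, detrended intensity from one-colour Cy3 scans (design 028005) with Feature Extraction 11.0.1.1. For 30574 probes, the authors also deposited the log2 of that intensity with no scaling between arrays, and the submitters' processing notes name R 2.15.1. The choice of these probes is not described in the labels. Other columns in the deposited files flag spots as well above background.

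From the scanner intensity, control and outlier spots were left out, repeated spots averaged, and log2 values lowered by the array's 75th percentile. Probes were named through RefSeq accessions (GRCm38.p6), with 27509 matching 1 symbol. Of a gene's probes that stood well above background on 2 or more of the 6 arrays, the brightest was used. Tests used limma 3.58.1 in R 4.3.3, with an additive fit of day and genotype (prior degrees of freedom 2.22) and a fit of genotype by silica (prior 1.87), and were tested on simulated data. The arrays' number limits the precision. "At least" folds set the silica arrays' own signals against untreated arrays counted at the higher of the probe's own signal and the lowest signal well above background on that array. The members, lists and tests were chosen with earlier results of these data known. Named beside the members were the up to 4 largest silica differences of each list among genes that passed (2 if none), the 3 genes most like each member, and Ptprc. A gene that this rule names is not reported here. Alternatives were normexp (offset 50), quantile normalization, the deposited table with and without the percentile, other filters and probe rules, a robust prior with an intensity trend, a block for the row of the slide, and leaving out each array.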

Additional observations from a re-analysis of the deposited data

Results flagged for a closer look

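Ccr2 moved in opposite directions in the 2 genotypes between untreated cells and day 40, by 1.43 log2 in Ccr2KO and by -1.78 in WT. Ccl8 moved in opposite directions between day 28 and day 40, by 1.40 in Ccr2KO and by -0.15 in WT, the WT step being within scanner error. Each is 1 array against 1 array, and the difference between the genotypes at these times was not tested.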

How the results depend on the processing

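No paired analysis was possible because the labels carry no replicate numbers and each group is 1 array. The count of members that passed the silica test was 0 with the slide row as a block, 3 with no filter, between 4 and 6 under the other settings, and between 0 and 5 when single arrays were left out. At day 28 it was 2 with no filter, 2 with each probe tested by itself, 0 with the row block and between 0 and 5 without single arrays. At day 40 it was 0 with the row block, at most 4 under the other settings and between 0 and 3 without single arrays. Day 40 against day 28 gave 1 member, Ccl12, with normexp, with either form of the authors' table, with the filter on all 6 arrays and with the trend and robust prior, and between 0 and 2 without single arrays. Genotype and the difference of responses gave 0 members under each setting. The share of all genes that passed moved as well. For silica it was 9.00% with no filter and 0 with the row block, against 19.8%. At day 28 it was 6.82% with no filter, 6.50% with each probe by itself and 0 with the block, against 17.2%. At day 40 it was 0 with the block and between 5.92 and 41.0% under the other settings, against 15.2%. Settings that called Ccl12 between the days passed 3.19 to 5.91%, against 2.73%. The deposited values without scaling called 1309 of 14931 genes higher and 3628 lower after silica, against 1725 and 1532 of 16422 in the values reported and 1822 and 1883 of 14931 in the deposited values after scaling. They turned the genotype sign of Cx3cl1 (-0.13) and Csf1 (-0.041), and the sign of day 40 against day 28 for Ccl2 (-0.034) and Csf1 (-0.28). Quantile normalization turned that of Csf1 (-0.020), and the row block turned that of Ccl2 (-0.073) and the day 40 difference of Ccr2 (0.48). Without single arrays, day 40 against day 28 ran between -0.073 and 0.71 for Ccl2, -0.48 and 1.73 for Ccl8, and -0.00018 and 0.15 for Csf1. Ccr2 ran between -1.55 and 1.19 at day 40 and between -0.24 and 2.50 for silica, and the response difference of Ccl12 between -1.47 and 0.015. The cause of these changes was not tested. The normexp setting used the median spot signal. The planned identity of member proteins, and the response difference without an untreated array, were not run.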
